A study of Mus musculus with 16 samples.

Results

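Neural progenitor and Notch genes were followed in whole mouse embryos at E9.5 (embryonic day 9.5) that carried or lacked functional Smchd1, a chromatin protein needed for X inactivation. The set held 10 of the 16593 genes named on the array, taken by name as every probe that the array's annotation gives to Hes5, Fgf15, Hes1, Sox2, Sox1, Pax6, Nes, Dll1, Notch1 or Fabp7. These genes had 13 of the 25697 probes on the array, with 2 probes each for Hes5, Sox2 and Nes. All 10 genes are autosomal.

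Total RNA of single embryos was hybridized to Illumina MouseRef-8 arrays, 1 array per embryo. There were 4 MommeD1 females, 4 wildtype females, 4 MommeD1 males and 4 wildtype males, all of the FVB/n strain, and each of 2 chips carried 2 arrays of every group. MommeD1 embryos were homozygous for a nonsense allele of Smchd1 that came from a chemical mutagenesis screen, and they were collected with their wildtype counterparts from natural matings. The MommeD1 embryos carried the mutation in every cell, so an effect within the nervous system and an effect on the whole embryo cannot be told apart.

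Notch signalling passes between neighbouring cells. A ligand such as Dll1 on one cell binds the Notch1 receptor on the next, the receptor's intracellular part is released, and with the DNA-binding protein RBPJ it switches on repressor genes of the Hes family. In the neural tube Hes1 and Hes5 hold back proneural genes and so keep neuroepithelial cells as dividing progenitors, while the cells that leave the pool express more ligand and become neurons. Sox1, Sox2 and Pax6 are transcription factors of these progenitors, Nes encodes the intermediate filament nestin of their cytoskeleton, Fabp7 encodes a lipid-binding protein of radial glia, and Fgf15 encodes a growth factor secreted by parts of the embryonic brain.

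Probe sequences were at hand for 3 of the 13 probes of the set, those of the 2 genes that changed. They are shown because the Hes5 probes are not independent of each other. Whether the 2 probes of Sox2 or of Nes overlap is not known here. The sequences were those of the study's probe annotation, which places all 3 probes in the 3′ untranslated region, and each probe had 50 bases. The Hes5 probes overlap by 49 bases and are offset by 1. The first 30 bases of each probe are given 5′ to 3′, with capitals marking the 29 of them that the Hes5 probes share.
Hes5, brighter probe: gTGTGTGCAGAGTTGTCATTTGGGGATAAT
Hes5, dimmer probe: TGTGTGCAGAGTTGTCATTTGGGGATAATc
Fgf15: gcctgtgtcaacctggacccctcatttaca
Agreement between the Hes5 probes is therefore a repeat of 1 target site on the same arrays, not a second measurement of the transcript.

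Hes5 is a direct target of Notch and RBPJ, and the 250 bases before its start in RefSeq (GRCm38.p6, chr4:154960673-154960922, plus strand) are shown for the RBPJ motif GTGGGAA. The motif was searched on both strands, and matches are in capitals.
Hes5, 250 bases before the start: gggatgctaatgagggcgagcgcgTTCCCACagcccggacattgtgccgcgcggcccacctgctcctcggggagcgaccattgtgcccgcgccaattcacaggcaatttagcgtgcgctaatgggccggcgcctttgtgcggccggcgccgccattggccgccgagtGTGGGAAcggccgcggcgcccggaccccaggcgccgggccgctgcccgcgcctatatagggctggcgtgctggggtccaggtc
The motif begins 226 bases before the start on the minus strand and 83 bases before it on the plus strand. Of 32851 promoter windows of this length in the RefSeq table, 5.42% held the motif at least once and 0.161% at least 2 times. The table held 10 windows for 8 of the 10 genes, and Hes5 was the 1 gene among them with a match. Fgf15 and Hes1 had no window there and were not searched for either motif. The N box CACNAG, a motif of Hes proteins, was found in the windows of Notch1, Pax6 and Fabp7, and in 36.7% of all windows on either strand. These are matches of letters in a window, and binding was not measured here.

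The deposited values were normalized on a log2 scale, and every array had a median of 6.34. Probes with values above 7 on 4 or more of the 16 arrays were tested, 9785 in all. Of the 13 probes of these genes, 9 passed, for 7 genes: both Hes5 probes, Fgf15, Hes1, the brighter Sox2 probe, both Nes probes, Dll1 and Notch1, each above 7 on all 16 arrays. Smchd1 itself lay between 7.34 and 7.60 in MommeD1 females, against 9.78 to 9.98 in wildtype females, and between 7.35 and 7.58 in MommeD1 males, against 9.72 to 9.88 in wildtype males, so every array matched its genotype label. Transcripts of yolk sac endoderm varied between embryos. The mean of 8 such markers was 8.93 to 9.99 on 3 arrays, MommeD1 female 2, MommeD1 male 1 and wildtype male 3, and 6.74 to 8.35 on the other 13. Calls of the set that change without these 3 arrays are given both ways. Named genes outside the set were not read without them.

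The comparison of MommeD1 with wildtype embryos, made for each sex, asks which of these transcripts respond to the loss of Smchd1. Hes5 and Fgf15 were higher in MommeD1 females by about the same factor, 1.43-fold for the brighter Hes5 probe and 1.40-fold for Fgf15. None of the 9 probes passed the test in males, although the Hes5 differences there were also positive. On the dimmer Hes5 probe the male difference, 0.43, exceeded the female one, 0.36. Hes1, Sox2, Nes, Dll1 and Notch1 did not pass the test in either sex. In females 3 of the 9 probes were higher and 0 were lower, where 4.17% of all probes tested were higher and 3.3% lower (limma, p-values adjusted by Benjamini-Hochberg over 9785 probes, threshold 0.05; 4 of the 9 had an unadjusted p under 0.05, as had 24.3% of all probes). In males 0 of the 9 were called, where 0.0818% of all probes were higher and 0.0511% lower, and 2 of the 9 had an unadjusted p under 0.05, as had 11.2% of all probes. Over both sexes 3 of the 9 probes, again those of Hes5 and Fgf15, were higher and 0 lower, against 5.46% and 5.22% of all probes. Since the Hes5 probes overlap, these calls stand for 2 of the 7 tested genes. The members were chosen with earlier results of these data known, so their counts set against all probes are no test of the set. The median difference over the 9 probes was 0.06 in females and 0.05 in males on the log2 scale, and that over all probes was -0.01 in females and 0.00042 in males. Replicates were single embryos on separate arrays, so the tests set each difference against the spread between embryos and their arrays. The labels give no litters, so whether embryos were littermates is not known here.

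**Figure D1:**
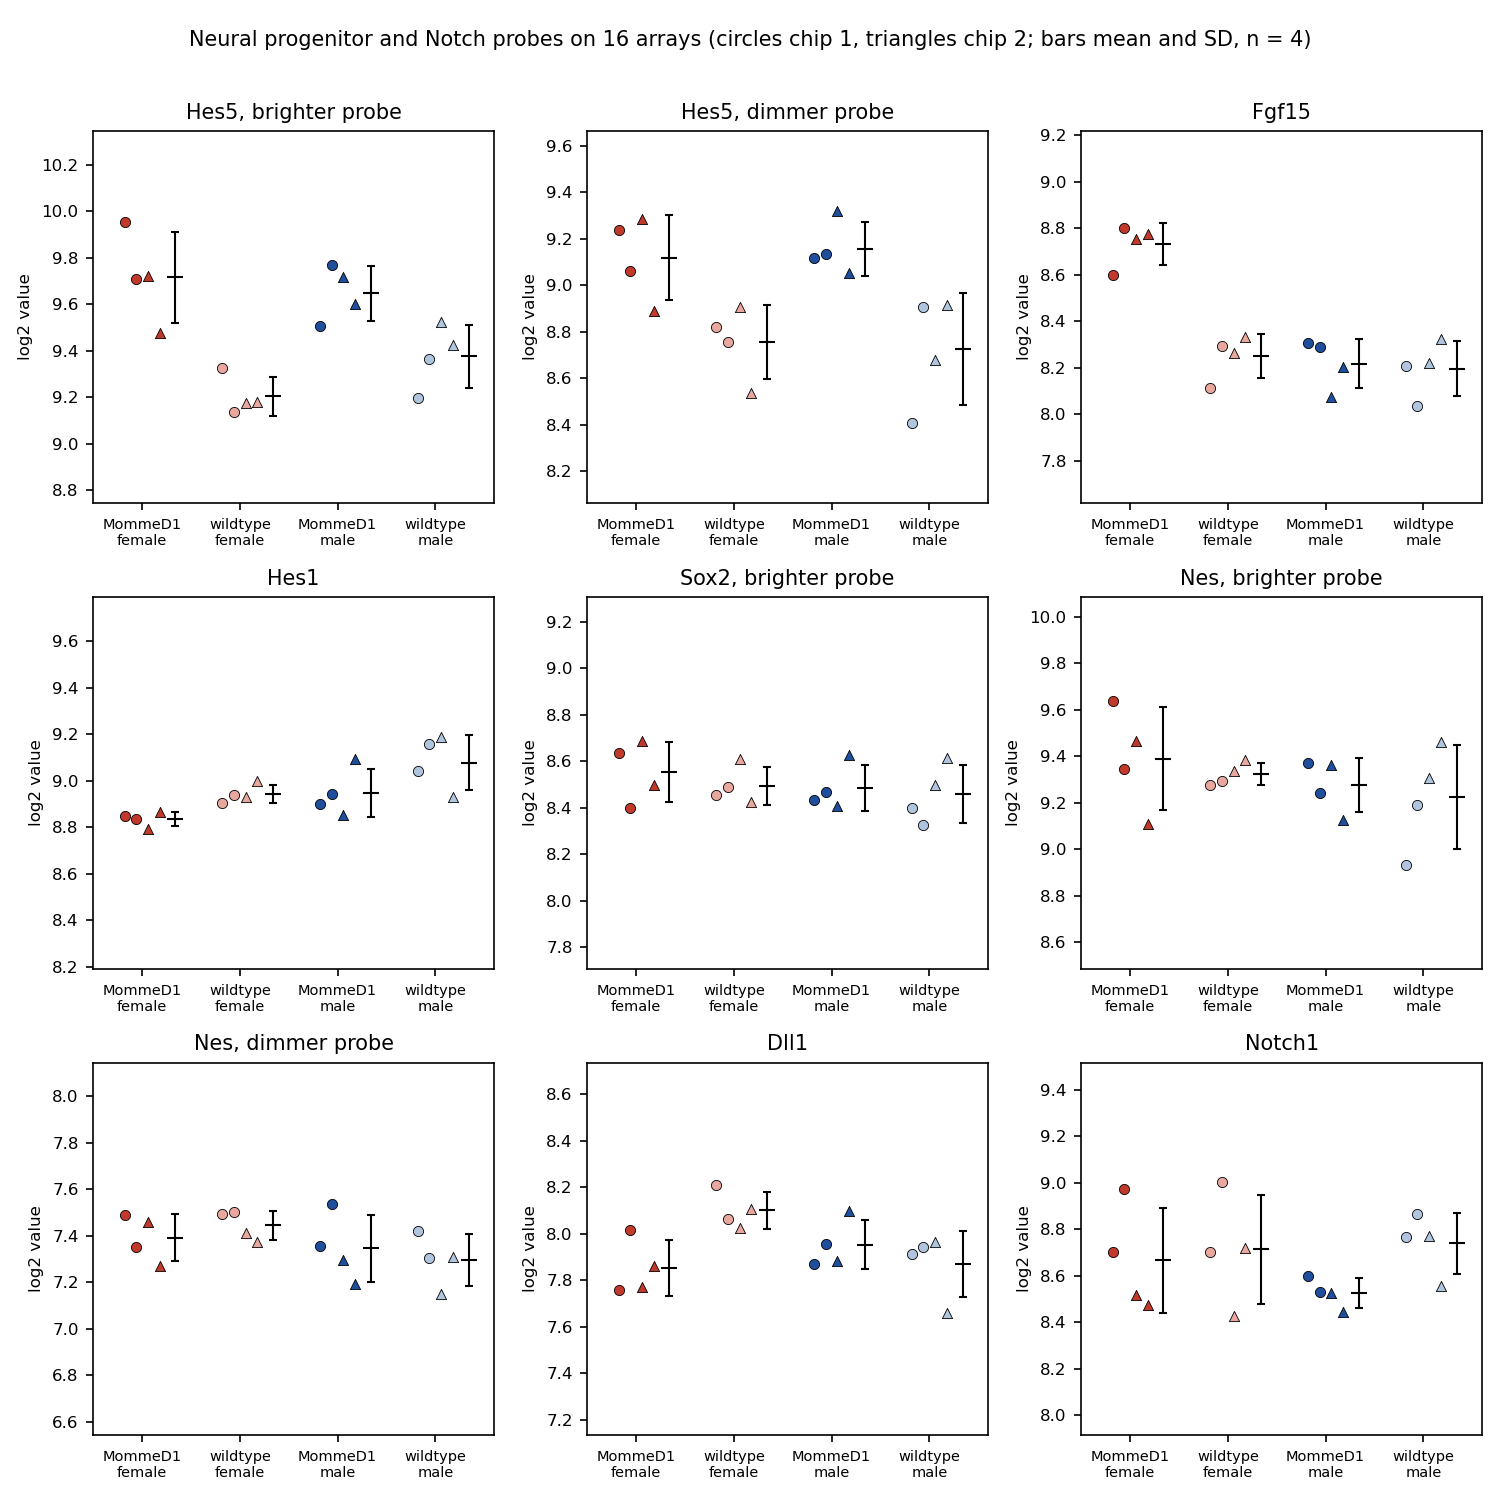
Log2 value (vertical axis, with the same span in every panel) of each of the 9 tested probes on the 16 arrays, by genotype and sex, with MommeD1 left of wildtype. Circles are arrays of chip 1 and triangles arrays of chip 2, and bars give the mean and SD of 4 arrays. The mean of Hes5 was higher in MommeD1 embryos of both sexes, past the threshold in females, that of Fgf15 in MommeD1 females, and Sox2 and Nes overlapped between genotypes.

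Hes5, on chromosome 4, encodes a basic helix-loop-helix repressor and is a Notch target expressed mainly in the developing nervous system. On the brighter probe the MommeD1 females had log2 values of 9.95, 9.71, 9.72 and 9.48, and the wildtype females 9.32, 9.13, 9.17 and 9.18. Every MommeD1 female was above every wildtype female. The difference was 0.51 ± 0.09 (SE, n = 4 against 4, adjusted p = 0.00148), with 0.60 on chip 1 and 0.42 on chip 2. The MommeD1 males had 9.5, 9.77, 9.71 and 9.60, and the wildtype males 9.20, 9.36, 9.52 and 9.42. These groups overlapped slightly, in that the lowest MommeD1 male lay just under the highest wildtype male. The male difference was 0.27 ± 0.09, a 1.21-fold change with an adjusted p of 0.248 and a 95% interval of 0.09 to 0.46.

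On the dimmer Hes5 probe the MommeD1 females had 9.24, 9.06, 9.29 and 8.89, and the wildtype females 8.82, 8.76, 8.91 and 8.54. The difference was 0.36 ± 0.11 (1.29-fold, adjusted p = 0.0474), with 1 MommeD1 female inside the range of the wildtype females. This call was close to the threshold: leaving out any of 7 of the 8 females, all but MommeD1 female 4, gave an adjusted p of 0.0526 to 0.136, and without the 3 arrays high in yolk sac transcripts it was 0.0833. The MommeD1 males had 9.12, 9.13, 9.32 and 9.05, and the wildtype males 8.41, 8.91, 8.68 and 8.92. Here every MommeD1 male was above every wildtype male, and the difference of 0.43 ± 0.11 had an adjusted p of 0.136. The unadjusted p of limma was 8.3e-04 in males and 0.00336 in females. The adjustment depends on all probes of a comparison, of which 13 were called in males and 731 in females. Over both sexes Hes5 was higher by 0.39 ± 0.06 on the brighter probe (adjusted p = 8.2e-04) and by 0.40 ± 0.08 on the dimmer probe (adjusted p = 0.00359), with n = 8 against 8. The female effect minus the male effect was 0.24 ± 0.13 on the brighter probe (adjusted p = 0.676, 95% interval -0.02 to 0.50) and -0.07 ± 0.15 on the dimmer one (adjusted p = 0.964, 95% interval -0.39 to 0.26), so a difference between the sexes was not shown for Hes5, and the probes differed in its sign. In RNA of whole embryos, more cells that express Hes5 and more Hes5 RNA per cell cannot be told apart, and the same holds for each gene here.

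**Figure D2:**
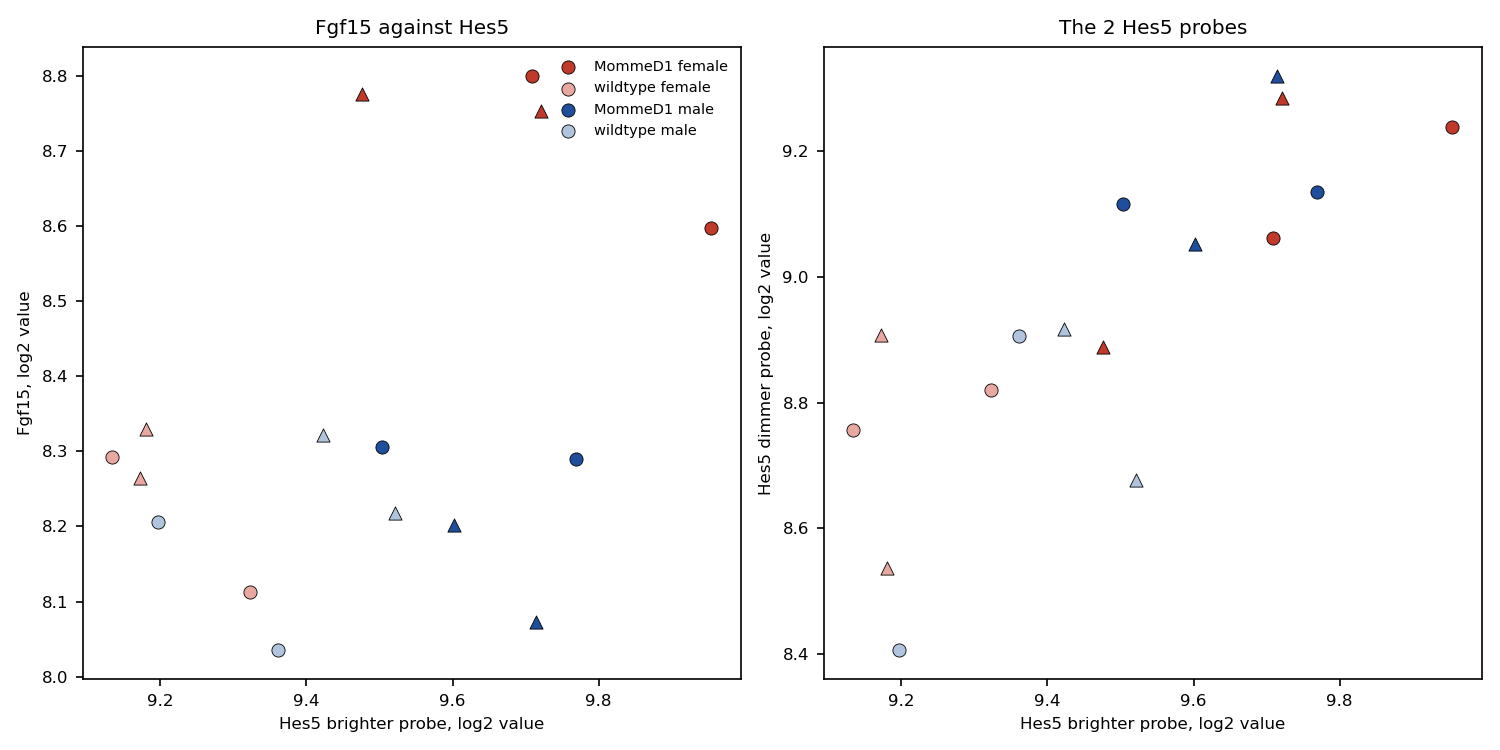
Log2 value of Fgf15 (left panel) and of the dimmer Hes5 probe (right panel) against that of the brighter Hes5 probe, 1 point per embryo, with colours for genotype and sex, circles for chip 1 and triangles for chip 2. The 4 MommeD1 females lie apart at the top of the left panel with Fgf15 values of 8.60 to 8.80, while MommeD1 males reach Hes5 values of 9.77 with Fgf15 at 8.31 or lower.

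Hes1, on chromosome 16, encodes the related repressor that acts downstream of Notch in many tissues of the embryo, the presomitic mesoderm among them. MommeD1 females had 8.85, 8.83, 8.79 and 8.86, against 8.91, 8.94, 8.93 and 9.00 in wildtype females. The groups did not overlap, but the difference was small, at -0.11 ± 0.06, and did not pass the test (adjusted p = 0.324). MommeD1 males had 8.90, 8.94, 8.85 and 9.09, against 9.04, 9.16, 9.19 and 8.93 in wildtype males, a difference of -0.13 ± 0.06 (adjusted p = 0.461). Over both sexes it was -0.12 ± 0.05 (adjusted p = 0.0986), and -0.14 with an adjusted p of 0.0473 when wildtype male 4, the lowest wildtype male, was left out. The sign was thus opposite to that of Hes5 in both sexes. Groups that did not overlap were common in females: 4 of the 9 probes (the brighter Hes5 probe and Fgf15 with MommeD1 higher, Hes1 and Dll1 with MommeD1 lower) separated the genotypes, where 14.8% of all probes did. In males 1 of the 9, the dimmer Hes5 probe, did so, where 6.18% of all probes did.

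Dll1, on chromosome 17, encodes a Notch ligand that is made by nascent neurons and by the presomitic mesoderm. MommeD1 females had 7.76, 8.02, 7.77 and 7.86, against 8.21, 8.07, 8.03 and 8.11 in wildtype females. Every MommeD1 female was below every wildtype female, by 0.01 at the closest. The difference of -0.25 ± 0.08 missed the threshold (adjusted p = 0.0549) and was -0.25 within either chip. Without MommeD1 female 2, one of the 3 arrays high in yolk sac transcripts and the highest of its group, it was -0.30 with an adjusted p of 0.0334, and without all 3 of those arrays it was -0.30 with an adjusted p of 0.0370. With chip as a block the adjusted p was 0.0466, also past the threshold. MommeD1 males had 7.87, 7.96, 7.88 and 8.10, against 7.91, 7.95, 7.96 and 7.66 in wildtype males, a difference of 0.08 ± 0.08 (adjusted p = 0.732). Wildtype male 4 lay well below the other wildtype males, and without it the male difference was 0.01 (adjusted p = 0.966). The female effect minus the male effect was -0.33 ± 0.11 (adjusted p = 0.364), so a difference between the sexes was not shown for Dll1.

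Notch1, on chromosome 2, encodes the receptor. MommeD1 females had 8.70, 8.97, 8.52 and 8.47, against 8.70, 9.00, 8.43 and 8.72 in wildtype females, a difference of -0.05 ± 0.11 (adjusted p = 0.831). MommeD1 males had 8.60, 8.53, 8.53 and 8.44, against 8.77, 8.86, 8.77 and 8.56 in wildtype males, a difference of -0.21 ± 0.11 (adjusted p = 0.469). The female groups shared almost their whole range, and the male groups overlapped at 1 array each. Notch1 had the largest chip difference of the 9 probes, at -0.21 ± 0.06 for chip 2 minus chip 1 (adjusted p = 0.0629). Since chips were balanced over the groups, the genotype difference within each chip could be read, and in males it was -0.25 in chip 1 and -0.18 in chip 2.

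Fgf15, on chromosome 7, encodes a secreted growth factor of the embryonic neural tube and brain. MommeD1 females had 8.60, 8.80, 8.75 and 8.78, against 8.11, 8.29, 8.26 and 8.33 in wildtype females. Every MommeD1 female was above every other embryo of the series, as no embryo outside that group exceeded 8.33. The female difference was 0.48 ± 0.07 (SE, n = 4 against 4, adjusted p = 3.9e-04), with 0.50 within chip 1 and 0.47 within chip 2. Without the 3 arrays high in yolk sac transcripts it was 0.46 (adjusted p = 0.00376). MommeD1 males had 8.31, 8.29, 8.07 and 8.20, against 8.21, 8.04, 8.22 and 8.32 in wildtype males. The male groups overlapped over most of their range, with a difference of 0.02 ± 0.07 (adjusted p = 0.938) and a 95% interval of -0.13 to 0.18. Within chips the male difference had opposite signs, 0.18 in chip 1 and -0.13 in chip 2.

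The effect of MommeD1 on Fgf15 was 0.46 ± 0.10 greater in females than in males, at the edge of the threshold (adjusted p = 0.0499). It was the 1 call among the 9 probes in this comparison, where 0.542% of all probes were called, and 2 of the 9 had an unadjusted p under 0.05, as had 7.81% of all probes. Without the 3 arrays high in yolk sac transcripts the difference between the sexes was 0.46 (adjusted p = 0.181). The direction was the same in all 27 alternative analyses, but the adjusted p ranged from 0.0270 to 0.953 and passed the threshold in 7 of them. Leaving out a single array kept the call in 3 of 16 cases (MommeD1 female 1, MommeD1 male 1 or wildtype male 2) and ended it in the other 13, with adjusted p up to 0.120. Fgf15 over both sexes was higher by 0.25 ± 0.05 (adjusted p = 0.00536), a mean of the unequal female and male values.

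**Figure D3:**
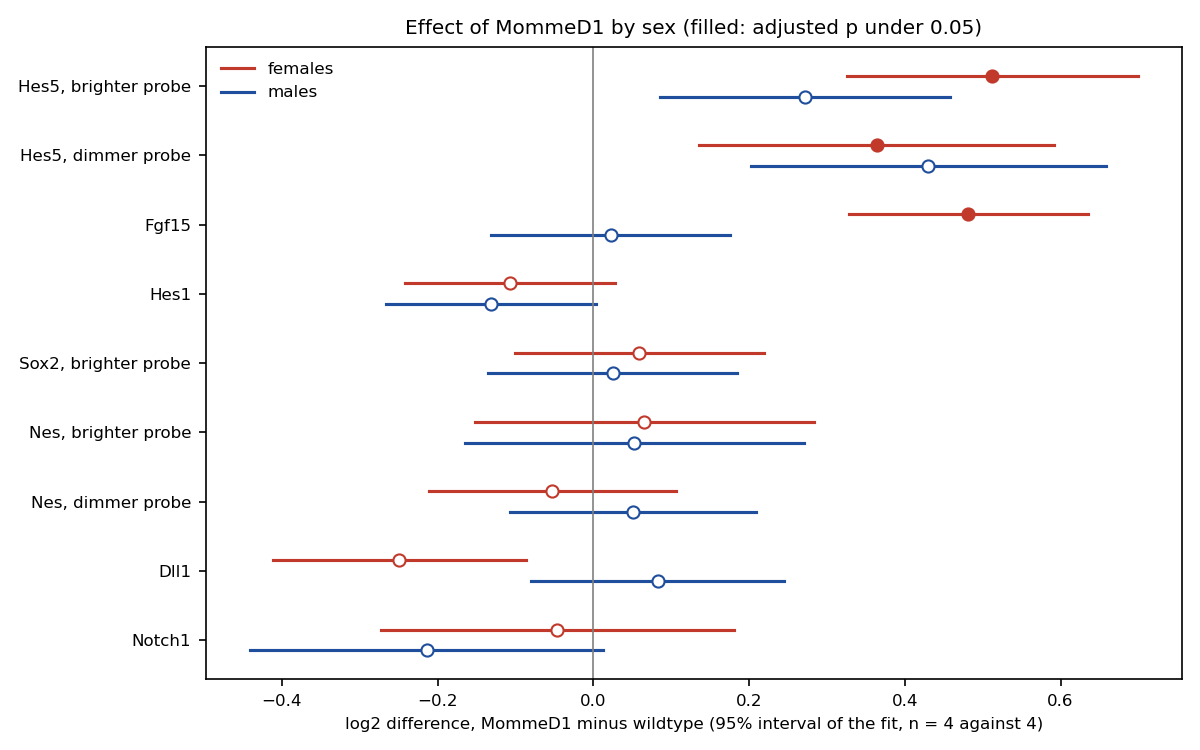
Log2 difference of MommeD1 minus wildtype (horizontal axis) for the 9 tested probes, in females (red, upper of each pair) and males (blue, lower), with the 95% interval of the fit (n = 4 against 4). Filled points passed an adjusted p of 0.05: both Hes5 probes (0.51 and 0.36) and Fgf15 (0.48) in females.

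Sox2, on chromosome 3, encodes a transcription factor held throughout the neuroepithelium. On its brighter probe MommeD1 females had 8.63, 8.40, 8.69 and 8.50, against 8.45, 8.49, 8.61 and 8.42 in wildtype females, a difference of 0.06 ± 0.08 (adjusted p = 0.685, 95% interval -0.10 to 0.22). MommeD1 males had 8.43, 8.47, 8.41 and 8.63, against 8.40, 8.33, 8.50 and 8.61 in wildtype males, a difference of 0.03 ± 0.08 (adjusted p = 0.932, 95% interval -0.14 to 0.19). The groups overlapped in both sexes. The female interval did not reach the 0.51 measured on the brighter Hes5 probe in the same embryos. It overlapped the 95% interval of the dimmer Hes5 probe in females, 0.14 to 0.59 around a difference of 0.36.

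Nes, also on chromosome 3, was measured by a pair of probes. On the brighter one MommeD1 females had 9.64, 9.35, 9.46 and 9.11, against 9.28, 9.30, 9.34 and 9.38 in wildtype females, a difference of 0.07 ± 0.10 (adjusted p = 0.741). The MommeD1 females spread widely around the narrow wildtype group. MommeD1 males had 9.37, 9.24, 9.36 and 9.13, against 8.93, 9.19, 9.31 and 9.46 in wildtype males, a difference of 0.05 ± 0.10 (adjusted p = 0.887). The sign depended on the chip in both sexes, with 0.21 in females and 0.25 in males within chip 1, and -0.07 and -0.14 within chip 2. The dimmer Nes probe ranged from 7.27 to 7.49 in MommeD1 females, against 7.37 to 7.50 in wildtype females, and from 7.19 to 7.54 in MommeD1 males, against 7.15 to 7.42 in wildtype males, with differences of -0.05 ± 0.08 and 0.05 ± 0.08 in females and males.

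The remaining 4 probes, of Sox1, Pax6, Fabp7 and the dimmer Sox2 probe, exceeded 7 on 0 of 16 arrays and averaged below the array median, so no fold change is given for them. Over the 16 arrays Sox1 had a mean of 6.17, Pax6 5.76, Fabp7 6.05 and the dimmer Sox2 probe 5.96. The group means of Pax6 were 5.75 in MommeD1 females, 5.78 in wildtype females, 5.76 in MommeD1 males and 5.74 in wildtype males. Those of Fabp7 were 5.97, 6.14, 6.04 and 6.06 in the same order of groups, and those of Sox1 were 6.18, 6.11, 6.23 and 6.15. No difference was tested for Sox1, Pax6 and Fabp7, so progenitors are described here by the 7 tested genes and the other progenitor genes below.

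Wildtype females and wildtype males gave a comparison of sex without the mutation. None of the 9 probes was called, where 0.0818% of all probes were, and 2 of the 9 had an unadjusted p under 0.05, as had 2.87% of all probes. Dll1 was 0.23 ± 0.08 higher in wildtype females, whose 4 values lay above all those of wildtype males (adjusted p = 0.999). How many of all probes separated the wildtype sexes was not counted. Hes1 was 0.13 ± 0.06 lower in wildtype females (adjusted p = 0.999). These values share the wildtype arrays with the genotype comparisons above. For Fgf15 the wildtype sexes differed by 0.06 ± 0.07 (adjusted p = 0.999).

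In the order of group means the brighter Hes5 probe ran from MommeD1 females (9.71 ± 0.20, SD, n = 4) over MommeD1 males (9.65 ± 0.12) and wildtype males (9.38 ± 0.14) to wildtype females (9.20 ± 0.08), and each neighbouring pair overlapped in its arrays. For Fgf15, MommeD1 females (8.73 ± 0.09) were followed by wildtype females (8.25 ± 0.10), MommeD1 males (8.22 ± 0.11) and wildtype males (8.20 ± 0.12), and the last 3 groups overlapped. The dimmer Hes5 probe had MommeD1 males first (9.16 ± 0.12), then MommeD1 females (9.12 ± 0.18), wildtype females (8.75 ± 0.16) and wildtype males (8.73 ± 0.24).

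As a description over 16 arrays, with each value taken as its deviation from the group mean, the Hes5 probes correlated with each other at r = 0.56 and with the brighter Nes probe at 0.68 and 0.69. Hes1 and Dll1 correlated at 0.69. Hes5 and Fgf15, which both rose in MommeD1 females, correlated at -0.39 on either Hes5 probe, so embryos of a group with more Hes5 did not have more Fgf15. Sox2 and Notch1 correlated at -0.63, and the 2 Nes probes at 0.11. The points share the arrays and their normalization. Of all other single-gene probes, those that followed the brighter Hes5 probe most closely in this way were of Wbp1 (0.91), Ttc5 (0.87), Coro1a (0.87), Ercc1 (0.86) and Taf12 (0.84), none of which was called in females or males. For Fgf15 they were Nav1 (0.91), Gldc (0.84), Arpc1b (0.84), Plekha1 (0.83) and Cldn1 (0.81). Of these Arpc1b, a subunit of the actin-nucleating complex, was lower in MommeD1 females (-0.37, adjusted p = 0.00354), opposite to Fgf15 itself. The probes named for Hes5 and for Fgf15 were picked as the highest correlations among all other single-gene probes. The highest of so many correlations over 16 arrays can be large by chance. Their height against chance was not tested, so no link of these genes with Hes5 or Fgf15 is read from them.

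The rest of the Notch pathway was read from a list of 40 other genes, of which 19 had a tested probe, each taken at its brightest one. In females 0 were higher and 1 was lower, and in males 0 were called. Their median difference was -0.01 in females and 0.00088 in males, against -0.01 and 0.00042 over all probes. The gene that was lower was Dtx2, of the Deltex family of ubiquitin ligases that act on Notch. It had 10.29, 10.23, 10.22 and 10.22 in MommeD1 females, against 10.32, 10.55, 10.60 and 10.39 in wildtype females. The groups did not overlap, and the difference was -0.22 ± 0.07 (adjusted p = 0.0434), but the second Dtx2 probe differed by 0.02 (adjusted p = 0.874). In males the Dtx2 difference was -0.21 (adjusted p = 0.220), and over both sexes it was -0.22 (adjusted p = 0.00672). Dtx3, another Deltex gene, was higher over both sexes by 0.26 ± 0.06 (adjusted p = 0.00888), with 10.85 to 10.96 in MommeD1 females against 10.42 to 10.84 in wildtype females, and 10.71 to 10.95 in MommeD1 males against 10.49 to 10.72 in wildtype males. The direct partner of Notch in the nucleus, Rbpj, and the ligand genes Jag1, Jag2, Dll3 and Dll4 were too dim to be tested.

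Of 33 other neural progenitor genes 16 were tested, and 0 were called in females or males. The largest positive female difference was that of Irx3, a homeobox gene of the neural tube, at 0.26 (adjusted p = 0.0742), while Lin28a (-0.29, adjusted p = 0.169) and Sox9 (-0.27, adjusted p = 0.113) lay further from 0. Over both sexes Lin28a, an RNA-binding protein that marks early progenitors, was lower by 0.29 ± 0.09 (adjusted p = 0.0431), with -0.29 on its second probe (adjusted p = 0.118). The median of the 16 was 0.03 in females and -0.05 in males.

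Of 23 neurogenic and neuronal genes, the side that Hes repressors hold back, 12 were tested and 0 were called in either sex alone. Their median difference was 0.10 in females and 0.12 in males, against -0.01 and 0.00042 over all probes. Over both sexes 11 of the 12 had a positive difference, where the median over all probes was -0.0040. The 12 genes share the arrays, and their mean ran from 7.85 to 8.28 within MommeD1 females alone. The 12 signs are therefore not independent, and some lists of other cell types leaned to 1 sign as well (below). Neurog2, a proneural gene that drives progenitors to become neurons, was the 1 call over both sexes, higher by 0.26 ± 0.07 (adjusted p = 0.0227). Its values were 8.13, 7.97, 8.18 and 8.06 in MommeD1 females, against 7.76, 7.89, 7.93 and 8.01 in wildtype females, and 7.97, 8.10, 7.88 and 8.12 in MommeD1 males, against 7.46, 7.91, 7.91 and 7.51 in wildtype males. The groups overlapped in both sexes. Of 17 genes of FGF signalling besides Fgf15, receptors, ligands and feedback inhibitors, 8 were tested and 0 were called. In males all 8 had a negative difference, from -0.27 for Fgf17 to -0.0050 for Etv5, where the median over all probes was 0.00042. These 8 signs, too, come from the same arrays.

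**Figure D4:**
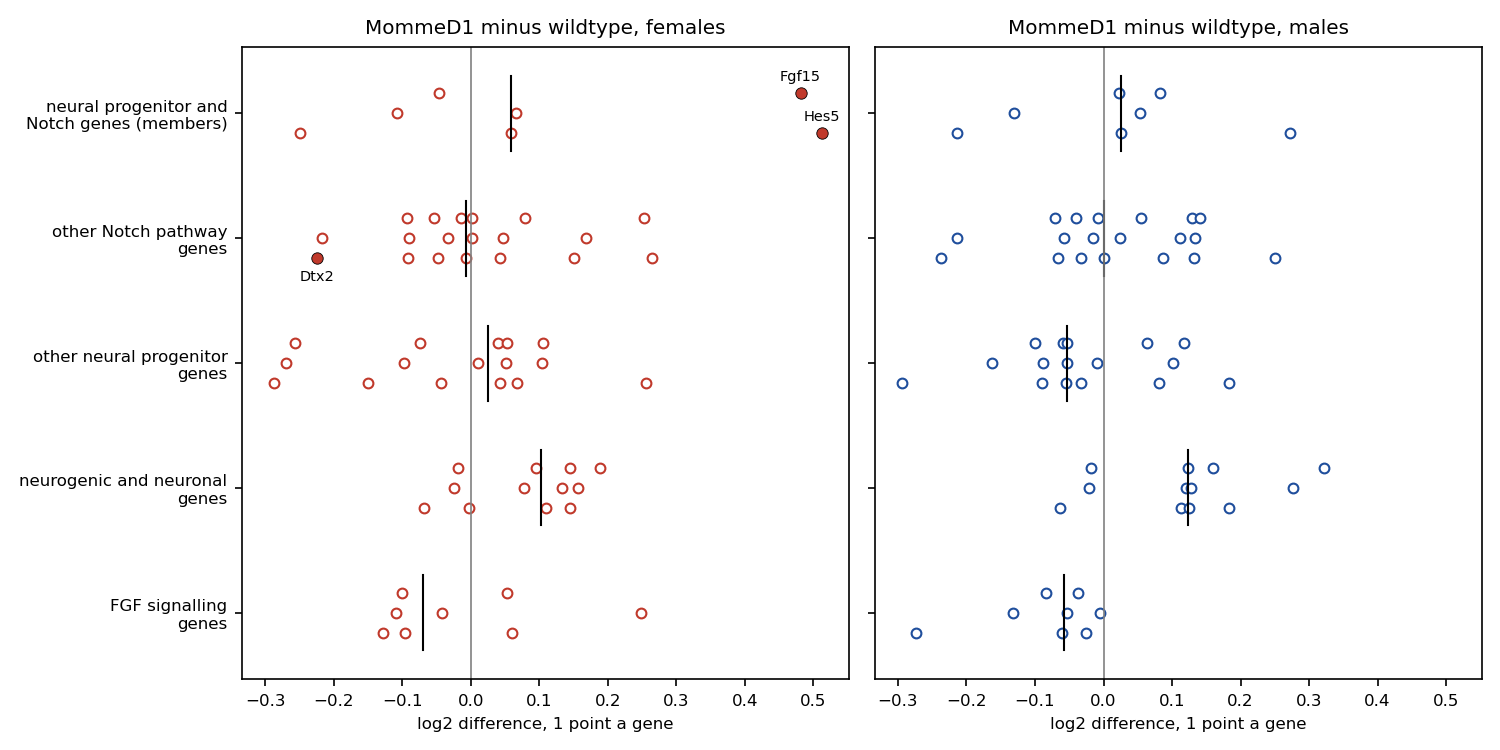
Log2 difference of MommeD1 minus wildtype (horizontal axis), in females (left) and males (right), for the 7 tested genes of the set and for 4 further lists, each gene at its brightest probe. Filled and named points passed an adjusted p of 0.05, vertical bars give the median of each list, and Hes5 (0.51) and Fgf15 (0.48) lie to the right of every gene of the other lists in females.

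Markers of the other cell types in these embryos were read beside the set. Of 15 presomitic mesoderm and somite markers 6 were tested and 0 were called, and the mean of these 6 ranged from 7.88 to 8.56 in MommeD1 females, against 7.96 to 8.61 in wildtype females, and from 7.95 to 8.69 in MommeD1 males, against 7.67 to 8.83 in wildtype males. Of 11 neural crest markers 7 were tested, and Msx1, a homeobox gene, and Ngfr, the low-affinity neurotrophin receptor, were lower in MommeD1 females, both by 0.25 (adjusted p = 0.0178 and 0.0252). Over both sexes Msx1 was lower by 0.24 (adjusted p = 0.00243). For Ngfr the male difference was 0.19 (adjusted p = 0.266), and the female effect minus the male effect was -0.45 (adjusted p = 0.0354). The mean over the 7 was 8.97 to 9.10 in MommeD1 females, against 9.11 to 9.16 in wildtype females, and 9.09 to 9.16 in MommeD1 males, against 9.12 to 9.20 in wildtype males. Of 13 endothelial markers 8 were tested, and the receptor gene Tek was lower in MommeD1 females by 0.34 (adjusted p = 0.00696) and over both sexes by 0.31 (adjusted p = 8.1e-04). The co-receptor gene Eng was higher over both sexes by 0.26 (adjusted p = 0.0163). Of all probes tested 3.3% were lower in females, and over both sexes 5.22% were lower and 5.46% higher. Of the 8 endothelial markers 5 had a positive difference in females (median 0.06) and 3 in males (median -0.04). Their mean was 8.93 to 9.02 in MommeD1 females, against 8.91 to 9.02 in wildtype females. It was 8.90 to 8.99 in MommeD1 males, against 8.91 to 8.98 in wildtype males. Of 11 primitive erythroid markers 7, and of 15 yolk sac endoderm markers 8, were tested, with 0 called in either list, and the median female difference of the yolk sac markers was 0.30. Over both sexes 7 of these 8 had a positive difference, with a median of 0.13. All 7 erythroid markers had a positive difference in males, with a median of 0.21, against 3 of the 7 in females. The part of these cell types in the Hes5 and Fgf15 differences was not tested, beyond the values without the 3 arrays high in yolk sac transcripts, which for the brighter Hes5 probe were 0.51 in females (adjusted p = 0.00439).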

How the data were processed

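Total RNA of 16 mouse embryos was measured on Illumina arrays, 1 array per embryo. The authors normalized the intensities with limma, and the deposited table holds log2 values per probe; the same minimum (5.26) and maximum (15.0) on every array is the pattern of quantile normalization. How background was corrected is not known here. A second table of signals and detection p-values had 32 columns that no label ties to an embryo, and it was not used. Probe names came from the platform annotation (1 gene symbol for 23978 of 25697 probes, none for 1719), and chromosomes from RefSeq (GRCm38.p6). The number of arrays limits the precision.

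The members and gene lists were chosen with earlier results of these data known. For probes above 7 on at least 4 arrays, lmFit and eBayes of limma 3.58.1 (R 4.3.3) were run with the 4 groups as terms and 12 residual degrees of freedom, and p-values were adjusted by Benjamini-Hochberg over all 9785 probes. The fit was tested on simulated data. Named genes were every member probe, list genes past the threshold in a comparison of genotypes, the 5 probes nearest to Hes5 and to Fgf15, and Smchd1; Irx3, Fgf17, Etv5 and the dim Notch genes were named after their values were seen. Alternatives were the chip or replicate number as a block, each chip alone, 1 sex alone, 3 arrays left out, other filters, 1 probe per gene, other variance settings, array weights, median centring and each array left out. Sequences were matched by script.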

Additional observations from a re-analysis of the deposited data

Results flagged for a closer look

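The effect of MommeD1 on Fgf15 differed between the sexes by 0.46 on the log2 scale (female effect minus male effect, limma, adjusted p = 0.0499). Within chip 1 the difference was 0.32, and within chip 2 it was 0.60.

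In 3 of the 52 groups of 4 arrays examined, 1 array stood apart from its group by Dixon's criterion, which chance meets in about 1 of 20 groups. For Dll1, wildtype male 4 had 7.66 against 7.91 to 7.96 in the other wildtype males. For the dimmer Sox2 probe, which lies below the array median, wildtype female 3 had 5.76 against 5.97 to 6.01 in its group, and wildtype male 2 had 6.16 against 5.94 to 5.97.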

How the results depend on the processing

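The count of member probes past the threshold in females was 3 and fell to 0 with chip 1 alone and 1 with chip 2 alone, where each group had 2 arrays. It was 4 with chip as a block, the stricter filter or array weights, which added Dll1 (1 lower), and 2 with no filter or 1 probe per gene. Over both sexes the count was 3 and fell to 0 with either chip alone and to 2 with 1 probe per gene. Leaving out 1 array gave 2 to 3 in females and 3 to 4 over both sexes. The count for the difference between the sexes was 1 and fell to 0 with the replicate block (Fgf15, adjusted p = 0.0669), with chip 1 alone, with chip 2 alone, without the 3 arrays high in yolk sac transcripts, with no filter, with 1 probe per gene and with array weights, and it was 0 to 1 with 1 array left out. In males and between the wildtype sexes the count stayed 0 under every alternative run.

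The 7 differences past the threshold kept their direction in all 166 alternative values and stayed past it in 126. The 38 others changed sign in 56 of 836, over 17 of them, and passed the threshold in 6, of which 5 were Dll1 in females and 1 was Hes1 over both sexes. The cause was not tested.

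Deviations from the group means correlated between -0.33 and 0.40 for 24 pairs of the same replicate number, with a median of 0.07, and 10 exceeded 0.1. For 24 pairs of other numbers on the same chip the median was 0.05, and 10 exceeded 0.1. The 4 same-number pairs of MommeD1 and wildtype females ran from 0.04 to 0.40. A pairing of embryos by replicate number was thus not shown, and it is not excluded. With the replicate block the 3 calls in females and over both sexes stood, and 870 probes of the whole table were called in females, against 731 without it.

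Counts over the whole table moved more. In females they ranged from 43 (chip 1 alone) to 960 around 731, with 79 for chip 2 alone, 464 without the 3 arrays, 364 with no filter, 419 without MommeD1 female 2, 478 without MommeD1 female 4 and 385 without wildtype female 3. In males they ranged from 7 to 98 (without MommeD1 male 1) around 13, with 66 without the 3 arrays, 57 with array weights and 30 with a trended, robust variance. Over both sexes they ranged from 25 (chip 1 alone) to 1298 around 1045, with 156 for chip 2 alone, 517 with no filter and 695 without MommeD1 male 3. For the difference between the sexes they ranged from 0 (either chip alone) to 67 around 53, and between the wildtype sexes from 4 to 10 around 8.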
